A study of Mus musculus with 6 samples.

Results

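miR-191 and miR-425 are made from 2 hairpins that lie next to each other in the mouse genome, and their 4 mature arms, mmu-miR-191-5p, mmu-miR-191-3p, mmu-miR-425-5p and mmu-miR-425-3p, were followed in extracellular vesicles (EVs) of the colon and of dendritic cells. The arms were chosen by name, as every entry of the deposited table that is an arm of either hairpin, which gives 4 of 1966 mature miRNAs. Both 5p arms had at least 10 counts in all 6 libraries and were among the 220 miRNAs that could be tested, whereas each 3p arm had that many in 2 libraries and did not pass the filter. In short, miR-191-5p was about 2.02-fold higher in BMDC EVs than in colon EVs, miR-425-5p did not differ beyond the spread between replicates, and the ratio of miR-191-5p to miR-425-5p was 2.11-fold higher in BMDC EVs.

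Small RNA was sequenced from 3 preparations of colon EVs and 3 of BMDC EVs, to compare the miRNAs that the gut and an immune cell release. Colon EVs came from the medium of explants, opened mouse colons kept in culture for 16 hours. For an iodixanol density gradient the sources of information differ, since the labels and the study's methods describe it for the colon preparations, of which fraction 2 was taken, while the study's results name it for both. BMDC EVs came from bone marrow-derived dendritic cells, grown from marrow with the growth factor GM-CSF for 7 days. All 6 libraries carry the label Rab27A fl/fl, a floxed allele of a gene for vesicle release, with no Cre named in the labels, so that both sources share this genotype. The culture medium, and the gradient where the labels hold, differed between the sources along with the cells, and their parts cannot be told apart from that of the source. The labels do not say whether the replicates of a source came from separate animals or cultures, so p-values measure the spread between these preparations.

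A miRNA is cut from a hairpin precursor whose stem can give a mature strand from either side, the 5p arm or the 3p arm, and usually 1 of them is kept in an Argonaute protein. Bases 2 to 8 of the mature strand, the seed, pair with target mRNAs. Hairpins that lie close together on the same strand are often transcribed as 1 precursor, and their mature products can still differ in level because each hairpin is cut, loaded and degraded on its own. miR-191 and miR-425 are known as a widely expressed pair in blood cells and in epithelia, and both 5p arms have been used as reference miRNAs in qPCR of tissue and serum.

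The mature strands are shown because their seeds and their lengths decide what can be compared, with the seed in capitals, 5′ to 3′, from RefSeq on GRCm38.p6. All 4 are on the plus strand of chromosome 9.
mmu-miR-191-5p: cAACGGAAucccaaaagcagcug
mmu-miR-191-3p: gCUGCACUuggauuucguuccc
mmu-miR-425-5p: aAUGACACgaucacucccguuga
mmu-miR-425-3p: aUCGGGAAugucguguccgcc
The arms lie at chr9:108568325-108568347, chr9:108568367-108568388, chr9:108568789-108568811 and chr9:108568830-108568850 in the order shown, and are 23, 22, 23 and 21 bases long. The 4 seeds differ from each other, so miR-191-5p and miR-425-5p form no seed family despite their shared locus. Both 5p arms have 23 bases, and the ratio of their counts is therefore also the ratio per length. The longest stretch that the 5p arms share is 4 bases, and no arm shared more than 8 bases in a row with any of the 1674 other listed miRNAs that have a sequence in RefSeq. Of the listed miRNAs with a sequence there, miR-489-3p alone has the seed of a member, that of miR-425-5p.
mmu-miR-489-3p: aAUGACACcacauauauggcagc
miR-489-3p had 0 counts in all 6 libraries, which allows up to 3 counts in each, or 35.7 CPM (counts scaled to a common library total) in the library with the lowest total. This limit, like the intervals given for shares, covers counting error only.

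The hairpins show how the arms are placed, here with both mature arms in capitals.
Mir191: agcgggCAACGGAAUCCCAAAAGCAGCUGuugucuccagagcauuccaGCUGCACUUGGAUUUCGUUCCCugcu
Mir425: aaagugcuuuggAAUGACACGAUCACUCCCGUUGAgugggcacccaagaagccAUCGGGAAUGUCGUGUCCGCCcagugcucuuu
Mir191 spans chr9:108568319-108568392 with 74 bases, Mir425 spans chr9:108568777-108568861 with 85 bases, and 384 bases lie between them. The gene that hosts them depended on the annotation. RefSeq places both inside Dalrd3, whose span of chr9:108567484-108572773 begins 835 bases before Mir191. In GENCODE vM21, on the same assembly, Dalrd3 begins 1024 bases past the end of Mir425, and both hairpins lie within the noncoding gene 4833445I07Rik. Its unspliced transcript is a single exon that holds both hairpins. In its spliced transcript, Mir191 lies in the intron between chr9:108568180 and chr9:108568484, and Mir425 begins just past the last exon, which ends at 108568774. Whether the pair is intronic or exonic thus changed between transcripts, and the RefSeq table used here holds no exons to settle it.

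**Figure D1:**
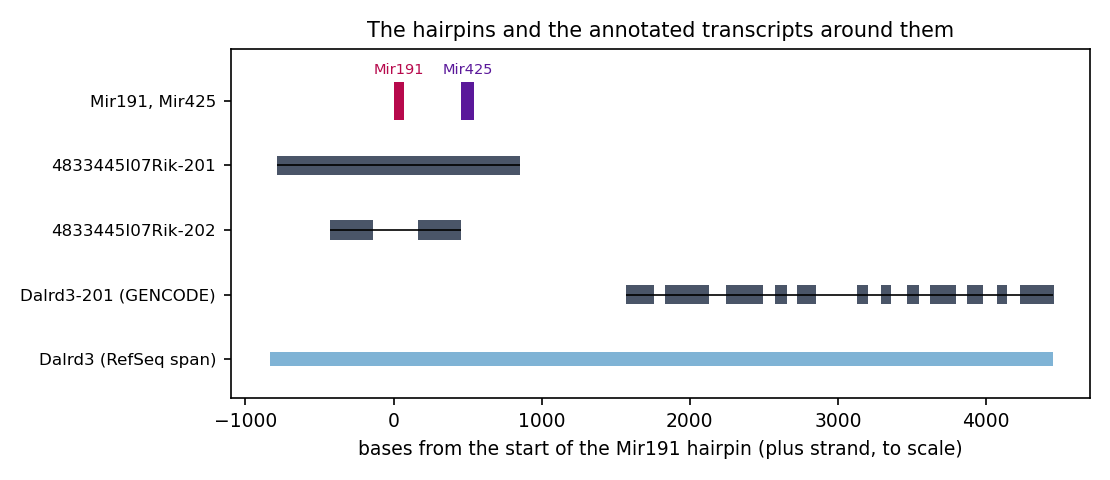
The Mir191 and Mir425 hairpins and the transcripts around them, to scale, with distance in bases from the start of Mir191 on the x axis and 1 row for each annotated transcript or span. Boxes are exons, thin lines introns, and the pale bar is the RefSeq span of Dalrd3, which takes in both hairpins, whereas the GENCODE transcript of Dalrd3 starts 1024 bases after Mir425 ends.

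The libraries differed in depth, and their markers matched their labels. Total counts were between 173358 and 645303 in colon EVs and between 83997 and 178454 in BMDC EVs, so that 3 counts were worth 4.65 to 17.3 CPM and 16.8 to 35.7 CPM. All 9 markers of epithelium were lower in BMDC EVs, with a summed level of 249410 to 384700 TMM-normalized CPM in colon EVs and 3411 to 6734 in BMDC EVs, and all 7 haematopoietic markers were higher, at 6618 to 13027 and 253040 to 291889. Of 6 markers of smooth muscle and mesenchyme, the 2 tested were lower in BMDC EVs (1471 to 2667 and 65.1 to 211, with miR-214-3p at 0 in BMDC EVs), and of 4 red cell markers the 1 tested was higher (77.9 to 234 and 567 to 695, with miR-144-3p at 0 in BMDC EVs and miR-486a-5p at 0 in colon EVs). Cell type markers of both kinds therefore moved with the source beside every result on the pair, and their part in those results was not tested. Within a source, log CPM correlated between replicates with a Pearson r of 0.955 to 0.989 across miRNAs, which are not independent replicates.

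miR-191-5p was an abundant miRNA in both sources. The table lists 9850.3, 4316.67 and 3472.82 estimated counts for it in colon EV replicates 1, 2 and 3. It lists 5937.86, 3565.83 and 10494.4 in BMDC EV replicates 1, 2 and 3. In TMM CPM, which are CPM after trimmed-mean scaling of each library, the level was 19663, 21559 and 21920 in colon EVs and 38646, 35894 and 53102 in BMDC EVs. The 3 colon preparations thus lay close together, the BMDC preparations were spread more widely with replicate 3 the highest, and the sources did not overlap. Such non-overlap was common here, at 81.8% of the tested miRNAs. The mean was 21047 ± 1212 in colon EVs and 42547 ± 9243 in BMDC EVs (SD, n = 3 each).

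miR-191-5p was higher in BMDC EVs by a log2 fold change of 1.02 (SE 0.227, 95% interval 0.54 to 1.49, adjusted p = 0.000502, edgeR's quasi-likelihood test, p-values adjusted over all tested miRNAs by Benjamini-Hochberg). It is 1 of 89 miRNAs that were higher in BMDC EVs at an adjusted p under 0.05, 40.5% of those tested, while 76.8% differed in either direction, so the call alone does not set it apart. The size of the change was modest among these miRNAs. 86 of the 220 had a larger log2 fold change than miR-191-5p, and 59 had a smaller absolute one, of which 13 passed the test. The median log2 fold change of all tested miRNAs was 0.19. A higher share of a source's EV RNA can come from more vesicles that carry the miRNA, from more of it in each vesicle or from less of other miRNAs. Bulk libraries cannot tell these apart. With no count filter, the log2 fold change was 0.52 (edgeR adjusted p = 0.195) and the call was lost, at a median shift of −0.52 over the miRNAs that both fits tested, and it was 1.02 (edgeR adjusted p = 0.000121) when the unfiltered table kept the TMM factors of the filtered one. The size also depended on the scaling. It was 0.87 with DESeq2's size factors in edgeR, 1.23 with upper-quartile scaling and 1.47 with library totals alone. These scalings shifted the median of all tested miRNAs by −0.13, 0.23 and 0.47. With single libraries left out, the value moved between 0.68 (edgeR adjusted p = 0.0104) without colon EV replicate 1 and 1.57 (edgeR adjusted p = 3.24e-06) without BMDC EV replicate 2. The count filter and TMM factors were set anew with each library left out.

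In ranks, miR-191-5p stood 17th, 13th and 13th in colon EV replicates 1, 2 and 3 and 7th, 8th and 5th in BMDC EV replicates 1, 2 and 3. By the mean level of each source it was number 15 in colon EVs and number 7 in BMDC EVs. It took 1.53%, 1.86% and 2.00% of the counts in colon EVs and 4.68%, 4.25% and 5.88% in BMDC EVs, with means of 1.80% ± 0.244 and 4.94% ± 0.846 (SD, n = 3 each). The share differed more than the TMM level because the TMM factors were 0.778 to 0.917 in colon EVs and 1.12 to 1.22 in BMDC EVs. Of the 30 miRNAs with the highest mean level, 29 passed the test, 10 of them higher and 19 lower in BMDC EVs, and miR-191-5p belonged to the smaller of these groups.

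miR-425-5p was present at a far lower level. It had 495, 274 and 142 counts in colon EVs and 201.5, 66 and 220.5 in BMDC EVs. These are 988, 1368 and 896 TMM CPM in colon EV replicates 1, 2 and 3 and 1315, 664 and 1113 TMM CPM in BMDC EV replicates 1, 2 and 3. The sources overlapped, with the lowest value in BMDC EV replicate 2, the library with the lowest total, and the highest in colon EV replicate 2. The mean was 1084 ± 250.3 TMM CPM in colon EVs and 1031 ± 333 TMM CPM in BMDC EVs (SD, n = 3 each).

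miR-425-5p did not pass the test, with a log2 fold change of −0.06 (SE 0.281, edgeR adjusted p = 0.863) that turned to 0.17 with upper-quartile scaling and 0.41 with library totals alone, against shifts of 0.23 and 0.47 in the median of all tested miRNAs. Its 95% interval of −0.65 to 0.53 leaves room for a difference in either direction. Among the 220 tested miRNAs, 6 had a smaller absolute log2 fold change. The sign also turned without any 1 of the BMDC EV libraries, to 0.10, 0.61 and 0.31 without replicate 1, 2 and 3. Without colon EV replicate 1, 2 and 3 the value was −0.41, −0.12 and −0.43. The log2 fold change of miR-191-5p likewise rose without each BMDC EV library and fell without each colon EV library. The count filter and TMM factors were set anew in each of these fits, and their part was not told apart from that of the library left out. The rank of miR-425-5p was 69, 60 and 72 in colon EVs and 58, 76 and 61 in BMDC EVs, and 66 and 64 by the means of the sources. Each library gave it between 0.0767% and 0.159% of its counts.

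Together, the 4 arms took 1.61% (exact 95% binomial interval 1.58 to 1.64), 1.98% (1.92 to 2.03) and 2.09% (2.02 to 2.16) of the counts in colon EV replicates 1, 2 and 3. They took 4.85% (4.73 to 4.97), 4.34% (4.20 to 4.48) and 6.02% (5.91 to 6.13) in BMDC EV replicates 1, 2 and 3. All 3 BMDC preparations lay above all 3 colon preparations, and miR-191-5p made up nearly all of this share. Non-overlap in TMM CPM was found for 81.8% of the tested miRNAs, and these shares carry no TMM scaling, which made the difference larger.

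**Figure D2:**
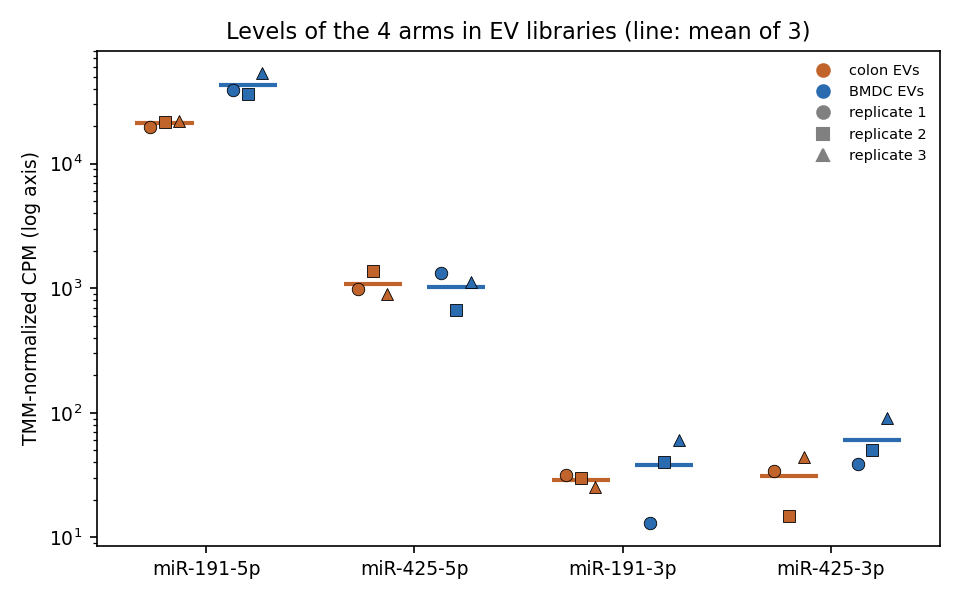
Levels of the 4 arms in each library, as TMM-normalized CPM on a log axis, with points for replicates 1 to 3 of each source and a line at the mean of 3. miR-191-5p separates into colon EVs near 21047 and BMDC EVs near 42547, miR-425-5p overlaps between 664 and 1368, and both 3p arms lie at 91.1 or below.

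**Figure D3:**
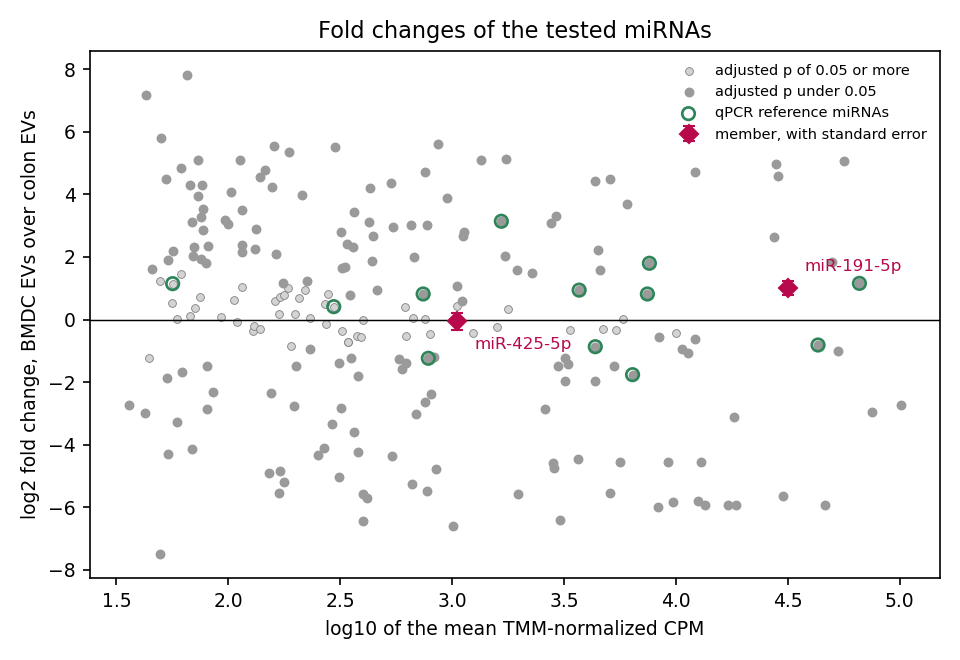
Log2 fold change of BMDC EVs over colon EVs against log10 of the mean TMM-normalized CPM for the 220 tested miRNAs, dark where the adjusted p was under 0.05, with the members as red diamonds with standard errors and the qPCR reference miRNAs ringed. miR-191-5p lies at 1.02 among the abundant miRNAs, and miR-425-5p lies at −0.06 next to the zero line.

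The ratio of the 2 hairpins' leading arms was then taken within each library, since it does not depend on scaling between libraries. For each count of miR-425-5p there were 19.9 counts of miR-191-5p (exact 95% interval 18.2 to 21.8) in colon EV replicate 1, 15.8 (13.9 to 17.9) in replicate 2 and 24.5 (20.7 to 29.1) in replicate 3. In BMDC EVs there were 29.4 (25.5 to 34.0) in replicate 1, 54.0 (42.4 to 70.0) in replicate 2 and 47.7 (41.7 to 54.8) in replicate 3. The sources did not overlap, although colon EV replicate 3 and BMDC EV replicate 1 were close and their counting intervals met. The geometric mean was 19.7 in colon EVs and 42.3 in BMDC EVs. On the log2 scale the ratio was 4.30 ± 0.317 and 5.40 ± 0.464 (SD, n = 3 each).

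The ratio was higher in BMDC EVs by 1.08 on the log2 scale (SE 0.299, adjusted p = 0.0109, edgeR's test of differential usage over 15 clusters of neighbouring hairpins). An adjusted p under 0.05 was reached by 3 of the 15 clusters, or 20%, and the ratio of the leading 2 hairpins did not overlap between the sources in 26.7% of them. The edgeR test took the 2 arms of a library as separate values and not as 1 ratio. A limma test on 1 log2 ratio per library, over the same clusters, gave 1.10 (adjusted p = 0.0495), just under the threshold. An exact two-sided permutation test of the 6 log ratios gave p = 0.1, the smallest value that 3 libraries against 3 allow. The call was lost without colon EV replicate 2 (0.90, edgeR adjusted p = 0.103) and without BMDC EV replicate 3 (0.94, edgeR adjusted p = 0.0875), and the direction was kept with each library left out.

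Other clusters show how neighbouring hairpins behaved in the same libraries. Clusters were hairpins on 1 strand no more than 10 kb from the next, each given by the more abundant arm among those with a single hairpin copy. In the miR-191/miR-425 cluster the log2 fold changes of the neighbours were 1.08 apart, where the median over 15 clusters was 0.529 and 4 clusters had a wider range. These ranges are not fully alike, since 11 of the 15 clusters had 2 hairpins and the others 3, which favours a wider range. Clusters of 3 hairpins and clusters given by a lesser arm are among the wider ones. miR-200c-3p and miR-141-3p, the epithelial miRNAs of chromosome 6, differed little in their log2 fold changes (−5.65 and −5.85, edgeR adjusted p = 0.885 for the ratio). miR-125a-5p and let-7e-5p of chromosome 17 likewise had −1.47 and −1.43 (edgeR adjusted p = 0.949 for the ratio). miR-192-5p of the gut epithelium and its neighbour miR-194-2-3p, which stood for its hairpin because the 5p arm has another copy, had −5.94 and −3.59, and their ratio passed (edgeR adjusted p = 0.00789). That call rests on the lesser arm, since the far more abundant miR-194-5p, counted over its copies, had −5.94, like miR-192-5p. The third cluster past the threshold, named after its value was seen, was miR-221-3p with miR-222-3p (2.02 and 3.03, edgeR adjusted p = 0.0464). Both of its members were higher in BMDC EVs, while in the pair followed here 1 was higher and the other did not pass the test.

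**Figure D4:**
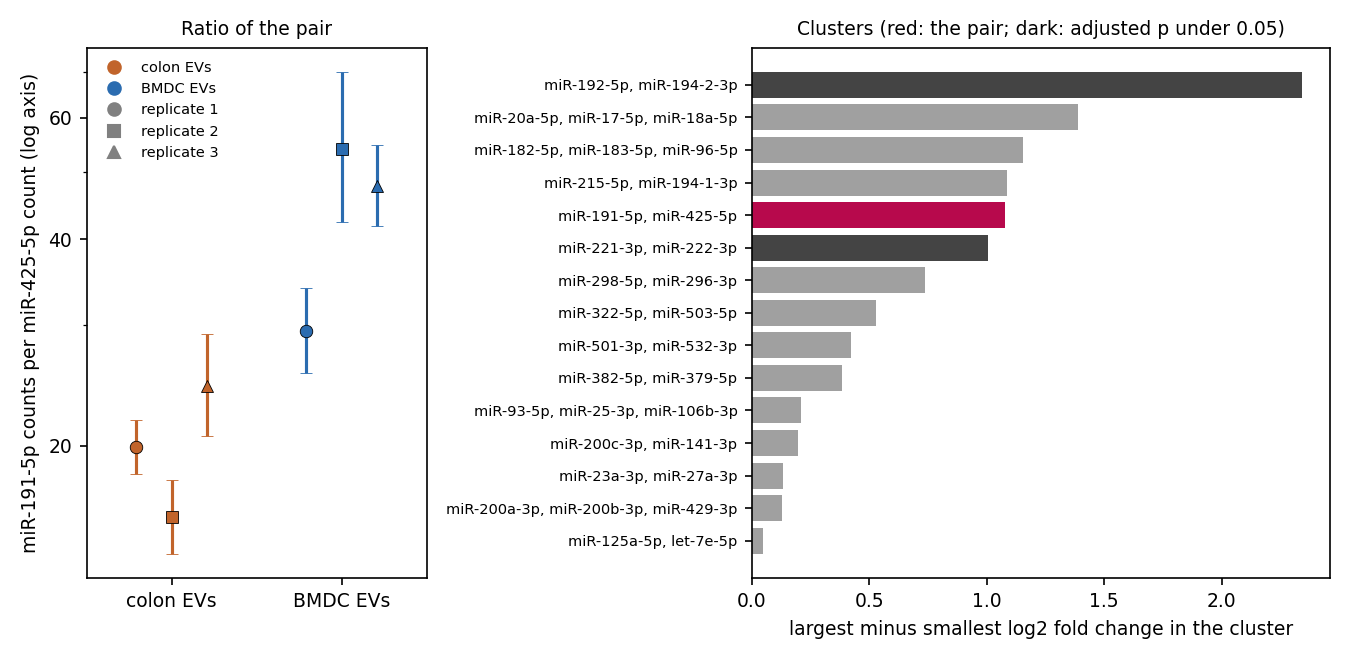
Left, miR-191-5p counts per miR-425-5p count in each library on a log axis, with exact 95% intervals of the counts, between 15.8 and 24.5 in colon EVs and between 29.4 and 54.0 in BMDC EVs. Right, the range of log2 fold changes among the hairpins of each of the 15 clusters, with the miR-191/miR-425 cluster in red at 1.08 and the other 2 clusters with an adjusted p under 0.05 in dark.

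The 3p arms were rare. miR-191-3p had 16, 6 and 4 counts in colon EVs and 2.11, 4 and 12.5 in BMDC EVs. Its level was 31.9, 29.96 and 25.2 TMM CPM in colon EVs and 13.0, 40.3 and 60.7 TMM CPM in BMDC EVs, where the colon values fell inside the wide span of the BMDC values. The mean log2 level differed by 0.16 (exact two-sided permutation test p = 0.8, n = 3 each). The edgeR fit with no count filter, a different measure, gave a log2 fold change of −0.14. miR-425-3p had 17, 3 and 7 counts in colon EVs and 6, 5 and 17.5 in BMDC EVs. These were 33.9, 15.0 and 44.2 TMM CPM in colon EVs and 39.0, 50.3 and 91.1 TMM CPM in BMDC EVs, with the highest colon value above the lowest BMDC value. Its mean log2 level differed by 0.79 (exact two-sided permutation test p = 0.2, n = 3 each). Scaled by library totals alone, it was 26.5 ± 13.7 CPM in colon EVs and 69.2 ± 28.1 CPM in BMDC EVs (SD, n = 3 each), without overlap, and the log2 difference was 1.18 (exact two-sided permutation test p = 0.1). Library totals alone moved the median of all tested miRNAs by 0.47 towards BMDC EVs. In TMM CPM, 81.8% of the tested miRNAs did not overlap, and the share by library totals was not counted. The permutation test of 3 libraries against 3 cannot give a p below 0.1, so it could make no call on either 3p arm. The edgeR fit with no count filter did test them, and neither passed. Its log2 fold change was −0.14 for miR-191-3p (edgeR adjusted p = 0.890) and 0.45 for miR-425-3p (edgeR adjusted p = 0.592). That fit shifted the median of the miRNAs it shared with the filtered fit by −0.52.

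Within its hairpin, miR-191-3p was a trace strand. It made up 0.162% (exact 95% binomial interval 0.0927 to 0.263), 0.139% (0.0510 to 0.302) and 0.115% (0.0314 to 0.294) of the hairpin's counts in colon EV replicates 1, 2 and 3. The share was 0.0337% (0.00408 to 0.122), 0.112% (0.0305 to 0.287) and 0.114% (0.0590 to 0.199) in BMDC EV replicates 1, 2 and 3. BMDC EV replicate 1 stood below the other libraries with 2 rounded counts of the 3p arm, and the intervals of all 6 libraries overlapped. The log2 ratio of 5p to 3p, with 0.5 added to each count, was 9.40 ± 0.186 in colon EVs and 10.19 ± 0.891 in BMDC EVs (SD, n = 3 each). The ratios of the sources did not overlap, by a narrow margin, as was so for 45.9% of 61 hairpins. They differed by 0.79 (exact two-sided permutation test p = 0.1, the smallest possible) and by 0.28 without BMDC EV replicate 1.

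miR-425-3p held a larger part of its hairpin's counts, at 3.32% (exact 95% binomial interval 1.95 to 5.26), 1.08% (0.224 to 3.13) and 4.70% (1.91 to 9.44) in colon EV replicates 1, 2 and 3. It held 2.88% (1.07 to 6.17), 7.04% (2.33 to 15.7) and 7.56% (4.54 to 11.7) in BMDC EV replicates 1, 2 and 3. The sources overlapped through BMDC EV replicate 1. The log2 ratio of 5p to 3p was 5.12 ± 1.05 in colon EVs and 4.04 ± 0.794 in BMDC EVs, a difference of −1.08 (exact two-sided permutation test p = 0.3, n = 3 each) that was −0.49 without colon EV replicate 2 and −1.54 without BMDC EV replicate 1. Summed over all 6 libraries, the lesser arm gave 0.117% of the counts of Mir191 and 3.85% of those of Mir425. Among the 61 hairpins with a mean of at least 100 counts, the median was 1.20%, and Mir191 was number 19 and Mir425 number 39 from the smallest share. The 5p arm was the greater arm in both hairpins, as in 38 of the 61.

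**Figure D5:**
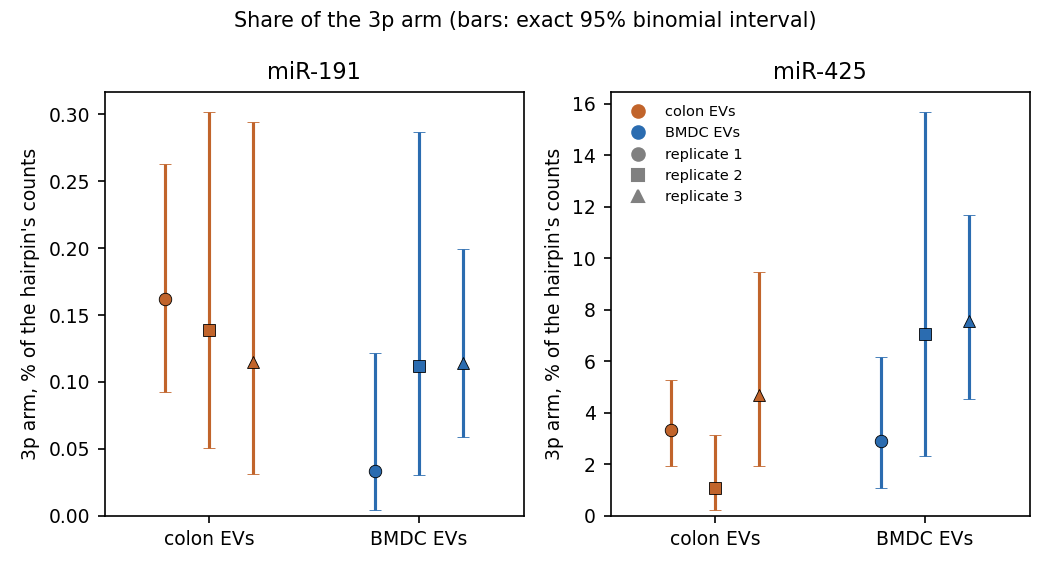
Share of the 3p arm in the counts of its hairpin, in percent, in each library with exact 95% binomial intervals, for miR-191 at left and miR-425 at right on separate linear axes that start at 0. miR-191-3p stays between 0.0337% and 0.162%, and miR-425-3p ranges from 1.08% to 7.56% with wide intervals.

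Since both 5p arms serve as qPCR references, they were set beside 12 other miRNAs used in this way, a list in which let-7a-5p, miR-16-5p and miR-103-3p are familiar. All 12 were tested, and 10 passed, 6 higher and 4 lower in BMDC EVs (background 76.8% in either direction). miR-186-5p and miR-484 did not pass. The median log2 fold change of the list was 0.82 against 0.19 over all tested miRNAs, and the median absolute value was 1.04 against 2.31. 6 of the 12 had a smaller absolute log2 fold change than miR-191-5p, and 0 had a smaller one than miR-425-5p. The miRNAs nearest in level changed in both directions. let-7a-5p, near miR-191-5p in level, was at 55065 ± 2180 TMM CPM in colon EVs and 31323 ± 2373 in BMDC EVs (−0.81, edgeR adjusted p = 0.00205). miR-361-5p, near miR-425-5p, was at 537 ± 59.9 and 948 ± 90.8 TMM CPM (0.82, edgeR adjusted p = 0.00881). miR-320-3p, which is made without the nuclear enzyme Drosha, was at 1100.3 ± 258 and 466 ± 13.7 TMM CPM (−1.24, edgeR adjusted p = 0.000476; SD, n = 3 each).

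Finally, the miRNAs whose pattern over the 6 libraries was most like that of each 5p arm were found by the root mean square (RMS) difference of log2 TMM CPM, each miRNA centred on its own mean. For miR-191-5p these were miR-25-3p (0.164), miR-93-5p (0.180), miR-345-3p (0.202), miR-16-5p (0.243) and miR-140-3p (0.265). miR-25-3p, miR-93-5p and miR-16-5p are also on the reference list, and miR-25-3p and miR-93-5p come from 1 cluster. For miR-425-5p they were miR-151-3p (0.271), let-7d-5p (0.273), miR-676-3p (0.319), miR-99b-5p (0.320) and miR-185-5p (0.375). The pair themselves were 0.637 apart. miR-425-5p was number 47 of 219 miRNAs in likeness to miR-191-5p, and miR-191-5p was number 44 of 219 in likeness to miR-425-5p.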

How the data were processed

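Libraries of small RNA (QIAseq miRNA chemistry) came from 3 colon EV and 3 BMDC EV preparations. For each mature miRNA, the authors deposited an estimated count without normalization, which can hold fractions of a read. The submitters' processing notes name STAR 2.7.6a, featureCounts 1.6.3, DESeq2 1.30.1 and the build GRCm38 (mm10). The miRNA annotation and any use of molecular identifiers are not given in the sources used here. The counts of miR-191-5p were not whole in 6 libraries, those of miR-191-3p in 2, of miR-425-5p in 2 and of miR-425-3p in 1, to a tolerance of 1e-09, and how the fractions arose is not given in the sources used here. Rounding changed a value by at most 5.21%.

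Columns were matched to libraries by their names, with 0 columns unmatched, and groups follow the labels. Replicates were compared before averaging, and none was a duplicate, since every pair differed by more than counting noise (chi-square per degree of freedom of at least 6.25). Total counts per library were between 83997 and 645303, and the library with the lowest total set the poorest precision.

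Rounded counts were tested with edgeR 4.0.16 in R 4.3.3 (glmQLFit and glmQLFTest, TMM, no covariates) over 220 miRNAs, those reaching 10 counts in 3 or more libraries, with Benjamini-Hochberg adjustment. The standard error is the log2 fold change over the square root of F. A positive value means higher in BMDC EVs. Ratios of neighbouring hairpins were tested with diffSpliceDGE over 15 clusters, from which 20 tested miRNAs with several hairpin copies and 25 tested miRNAs without a RefSeq entry were left out. Names of 1675 of 1966 miRNAs matched RefSeq. The 3p arms did not pass the count filter, so their levels (log2 CPM, prior count 2) and arm ratios (0.5 added) were compared by exact two-sided permutation tests. Tests were tried on simulated data first. The test of levels recovered 13 of 20 changes of 2-fold, 20 of 20 of 4-fold and 20 of 20 of 8-fold. It called 1 of 149 unchanged miRNAs among 209 tested, a larger unchanged part than in the data. The ratio test recovered 5 of 5 changes of 4-fold and called 0 of 10 unchanged clusters. A ratio change as small as the one found here was not simulated.

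The members, the lists and the tests were chosen with earlier results of these data known. Named are the members, miRNAs with a member's seed, the 12 reference miRNAs with values for the 3 nearest in level, the 5 miRNAs nearest in pattern to each 5p arm, and the 3 other clusters of exactly 2 tested hairpins with the highest level. Alternatives were DESeq2 1.42.0, limma 3.58.1 with voom, other scalings and filters, robust dispersion, the replicate number as a block, a cluster distance of 50 kb, summed arms and each library left out. Figures were drawn with matplotlib 3.10.9.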

Additional observations from a re-analysis of the deposited data

How the results depend on the processing

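Results that changed direction or call are given here, with log2 values of BMDC EVs over colon EVs. With no count filter (771 miRNAs tested), the miR-191-5p level was 0.52 (adjusted p = 0.195, edgeR), and 6 reference miRNAs passed in place of 10. miR-191-3p was −0.14 by edgeR there, a measure unlike its difference of 0.16 in mean log2 level. The fit shifted the median of shared miRNAs by −0.52, and with the TMM factors of the filtered table, an alternative added after the data were seen, miR-191-5p was 1.02 (edgeR adjusted p = 0.000121) and 239 miRNAs differed, against 231 with no filter and 169 with it. miR-425-5p turned to 0.17 with upper-quartile scaling and to 0.41 with library totals alone, which moved the median of all tested miRNAs by 0.23 and 0.47, while DESeq2's size factors moved it by −0.13. The pair's ratio was 1.10 by the exact permutation test (p = 0.1, the smallest possible). With each library left out, miR-191-5p ranged from 0.68 to 1.57, miR-425-5p from −0.43 to 0.61, miR-191-3p from −0.12 to 0.96, the pair's ratio from 0.90 to 1.35, the number of differing miRNAs from 133 to 150 and that of the reference miRNAs among them from 8 to 10, with 10 only without BMDC EV replicate 2. The difference in the miR-425 arm ratio ranged from −1.54 to −0.49. The pair's ratio lost its call without colon EV replicate 2 and without BMDC EV replicate 3. For the levels, the count filter and scaling were set anew with each library left out. The log2 fold changes of both 5p arms then rose without each BMDC EV library and fell without each colon EV library. Apart from the changes of scaling and filter, the cause was not tested. Same-numbered replicates of the sources showed no likeness (correlations of deviations −0.145, −0.0596 and −0.133). The deviations were centred within each source of 3 libraries, so these values cannot decide whether samples were paired. With the replicate block, 164 miRNAs differed, miR-191-5p was 1.00 (edgeR adjusted p = 0.000875) and the ratio was 1.07 (edgeR adjusted p = 0.0164). The block, DESeq2, voom and edgeR's own filter gave no value for the 3p arms, which did not pass the filter. The 3p arms had 2 to 18 rounded counts a library.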
